A study of Homo sapiens with 4 samples.

Results

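Keratins, vimentin and lamins are the subunits of intermediate filaments, the rope-like polymers that brace the cytoplasm and line the inside of the nuclear envelope. Keratins assemble as obligate pairs of a type I and a type II chain and mark epithelial cells, with KRT8 and KRT18 as the basic pair of simple epithelium, whereas vimentin, a type III chain that polymerises alone, is typical of mesenchymal cells and is also made by many carcinoma cells in culture. Lamins are the nuclear members: LMNA encodes lamins A and C, and LMNB1 and LMNB2 encode the B-type lamins. The 10 genes described here, KRT7, KRT8, KRT18, KRT19, KRT80, KRT81, VIM, LMNA, LMNB1 and LMNB2, were found by symbol among the 57905 genes of the deposited tables, and each matched 1 gene. They were chosen by name with earlier results of these data known, and which measured values entered the choice is not recorded. Their levels and differences are therefore a description, and the adjusted p given for a gene says where it lies in the fit across all genes and is not independent evidence.

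The cells were A549, an established human lung adenocarcinoma (NSCLC) line grown in DMEM with fetal bovine serum. There were 2 control libraries and 2 libraries of cells exposed to 0.6 µM GMI, a fungal immunomodulatory protein from Ganoderma microsporum, and the labels of both groups give 24 h. The sources used here do not give what the control cells received or whether replicate libraries were grown as separate cultures, so p-values measure only the spread between these libraries, and the spread between libraries may be technical. The stated purpose was to profile genes expressed differently with GMI.

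The values are FPKM, fragments scaled by gene length and by library size, and the library denominators recovered from the steps of the values lay between 20560000 and 24090000 fragments. Of the fixed epithelial markers, KRT8, KRT18 and KRT7 were abundant, while EPCAM lay between 0.29 and 0.35 FPKM, CDH1 between 1.96 and 2.55 and KRT19 between 0.36 and 0.96. The other two went up with GMI while KRT7 and KRT18 fell: ELF3, an epithelial transcription factor, from 25.27 and 23.16 to 44.15 and 49.47 FPKM (adjusted p = 0.00135, limma), and CLDN4, a tight junction claudin, from 0.99 and 1.34 to 4.02 and 4.04 (adjusted p = 0.00152). Of 7 fibroblast markers 0 reached 1 FPKM in any library, and their summed level was 1.28 to 1.36 FPKM in the controls and 1.28 to 1.36 with GMI. The endothelial markers summed to at most 0.07 FPKM. Of 6 leukocyte markers CD14 and CD68 reached 1 FPKM, and PTPRC and CD3E were at 0 throughout. The list summed to 3.14 and 3.16 FPKM in the controls and 6.34 and 4.55 with GMI. Most of that rise was CD14, from 2.11 and 2.0 to 4.61 and 3.61 FPKM (adjusted p = 0.0092, limma), while CD68 was not called. In bulk RNA, fewer cells of a type and less RNA per cell cannot be told apart.

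With GMI, the keratin RNA of A549 cells was lower and its make-up shifted. KRT7, KRT80, KRT81 and, to a smaller degree, KRT18 fell, while KRT8 did not pass the test. VIM rose, and both B-type lamin genes fell while LMNA did not pass. Of the 10 genes, 9 passed the filter of at least 1 FPKM in at least 2 libraries, 6 of the 9 were lower and 1 was higher at an adjusted p of 0.05 (limma on log2(FPKM + 1), Benjamini-Hochberg over 11598 genes). Across all tested genes 6.12% were called lower, 9.30% higher and 15.4% in either direction. Since the members were chosen with this contrast in view, nothing is read from their share.

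**Figure D1:**
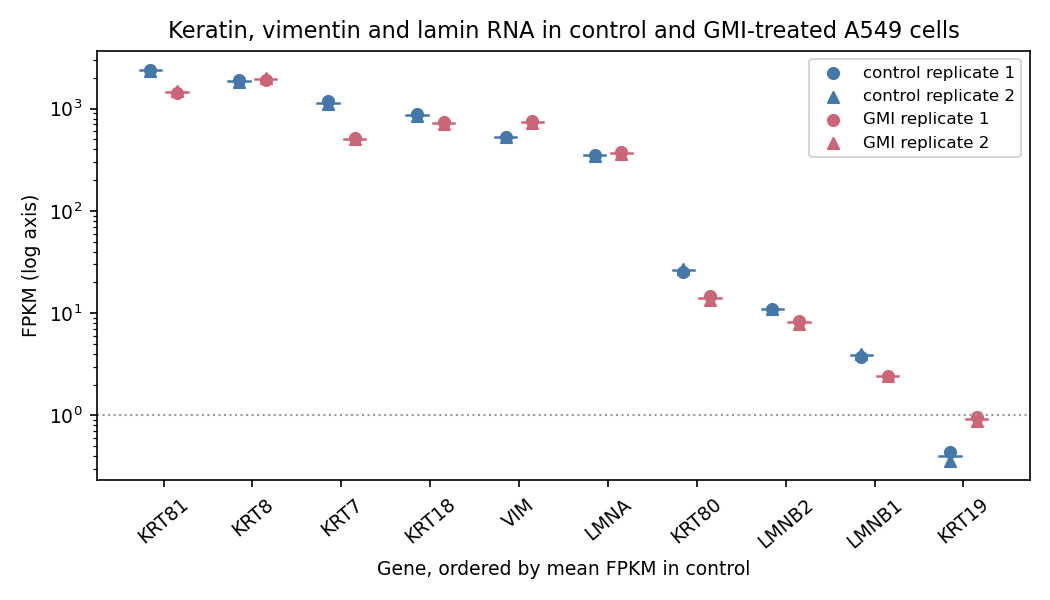
FPKM of each of the 10 genes (log axis) in the 2 control (blue) and 2 GMI (red) libraries; circles are replicate 1, triangles replicate 2, short lines the group means and the dotted line 1 FPKM. The control and GMI points of KRT7 lie farthest apart among the abundant genes, those of KRT8 overlap, and KRT19 stays below the line in every library.

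The genes were compared at the stretch that encodes the end of the central rod, the coiled-coil part common to all intermediate filament proteins. The GENCODE 29 principal coding sequences were translated and searched for YxxLLE, where x is any amino acid. This exact pattern had a match in 9 of the 10 genes and none in KRT80. For 4 of these genes the stretch is shown with the 10 of 24 bases that are identical in those 9 genes in capitals. Part of these identities was fixed by the pattern searched for, so they are no evidence of shared ancestry.
KRT8 (type II): TACaGgaagCTgcTgGAgGgcgag
KRT18 (type I): TACcGccgcCTgcTgGAaGatggc
VIM (type III): TACaGgaagCTgcTgGAaGgcgag
LMNB1 (B-type lamin): TACaGgaaaCTctTaGAaGgcgaa
The coding sequences were also aligned in pairs, with gaps left out. KRT8 and KRT18 were identical at 67.1% of aligned bases, KRT7 and KRT8 at 76.7%, and LMNA and LMNB2 at 72.8%. Keratin and lamin pairs reached similar values (KRT18 and LMNA 70.0%, KRT19 and LMNA 70.4%), and LMNA and LMNB1 had 64.0%. These percentages therefore do not rank the members by relatedness.

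Among type II keratins, KRT7 (ENSG00000135480), a keratin of glandular and lung epithelium used in pathology to type adenocarcinomas, stood at 1176.49 and 1118.15 FPKM in the controls and at 518.38 and 501.62 FPKM with GMI. Both GMI libraries lay below 0.5 of either control. Mean FPKM was 1147 ± 41.3 for control and 510.0 ± 11.9 for GMI (SD; each group has n = 2 throughout). On the log2 scale KRT7 changed by -1.17 (SE 0.060, adjusted p = 0.000407 in limma).

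KRT81 (ENSG00000205426), a keratin of the hair type that is rare in normal lung, had the highest FPKM of the members in the controls (below KRT8 and KRT7 after rescaling to principal transcript length), at 2373.72 and 2359.06 FPKM, and had 1438.42 and 1497.57 FPKM with GMI. The groups did not overlap, and among all genes of a library it ranked 14 and 12 in the controls and 26 and 24 with GMI. Its log2 fold change was -0.69 (SE 0.061, adjusted p = 0.00152). KRT80 (ENSG00000167767), a less abundant type II epithelial keratin, had 25.48 and 26.88 FPKM in the controls and 14.79 and 13.52 with GMI. Its groups did not overlap either, and its log2 fold change was -0.84 (SE 0.071, adjusted p = 0.00134).

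KRT8 (ENSG00000170421), the type II chain of the simple epithelial pair, measured 1927.72 and 1841.14 FPKM in the controls and 1914.04 and 1981.00 with GMI. Here the groups overlapped, and the log2 fold change of 0.05 (SE 0.063, adjusted p = 0.653) was within the spread between libraries. Its partner KRT18 (ENSG00000111057), a type I chain, measured 884.53 and 845.64 FPKM in the controls and 739.60 and 700.46 with GMI. The groups did not overlap, but the difference was the smallest among the called members, with a log2 fold change of -0.26 (SE 0.062, adjusted p = 0.0339). That call was lost with median centring of the libraries (adjusted p = 0.0535), without the mean-variance trend (0.0756), and without GMI replicate 1 (0.0506) or GMI replicate 2 (0.104). The FPKM ratio of KRT8 to KRT18 was 2.18 in both controls and 2.59 and 2.83 with GMI. Once levels were rescaled to principal transcript length it was 3.76 in both controls and 4.47 and 4.88 with GMI. In GENCODE 29 the pair overlaps on opposite strands, over 7.63% of KRT8 and 16.31% of KRT18 exon bases. The strand setting of the counting is not given, so how reads of that overlap were assigned is not known.

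KRT19 (ENSG00000171345), the smallest type I keratin, was barely present and was not tested. Its 0.44 and 0.36 FPKM in the controls stood for about 21 and 20 fragments, and its 0.96 and 0.88 FPKM with GMI for about 49 and 43. The groups did not overlap, as was so for 60.2% of all tested genes.

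Of the 49 other human keratin symbols, 45 had no gene above the filter, and of the 4 that did, 2 fell and 1 rose. KRT6A, a type II keratin of wounded and fast-turnover epithelium, had 2.14 and 2.34 FPKM in the controls and 0.23 and 0.21 with GMI (log2 fold change -1.41, SE 0.11, adjusted p = 0.00108). It passed the filter through the controls alone, so it had to differ. KRT10, the type I keratin of differentiating epidermis, went the other way, from 18.11 and 16.28 FPKM to 24.10 and 20.92 (log2 fold change 0.37, SE 0.089, adjusted p = 0.0382), a call that was lost with quantile normalization, without the mean-variance trend, and without either control replicate or GMI replicate 1. KRT16 was not called (log2 fold change -0.12). The remaining keratins added little: the 6 member keratins made up 99.2% to 99.4% of summed keratin FPKM in every library.

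The fourth of these genes was KRT86, a hair type II keratin next to KRT81 on chromosome 12. It had 15.78 and 14.96 FPKM in the controls and 8.45 and 8.32 with GMI (log2 fold change -0.80, SE 0.067, adjusted p = 0.00134). Its level was 0.665% and 0.634% of that of KRT81 in the controls and 0.587% and 0.556% with GMI. The coding sequences of the pair are 94.2% identical over 1457 aligned bases, and their longest identical run is 605 bases, so fragments from much of KRT81 cannot be told from KRT86 and the value of KRT86 is uncertain. Only the coding parts were compared, and the untranslated parts may also separate the genes. The 100 coding bases where the pair differs most, positions 1227 to 1326 of each in the GENCODE 29 principal transcripts, are shown with the 19 differing bases in capitals.
KRT81: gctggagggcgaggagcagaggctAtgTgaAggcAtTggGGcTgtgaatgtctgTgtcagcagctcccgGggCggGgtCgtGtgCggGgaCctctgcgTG
KRT86: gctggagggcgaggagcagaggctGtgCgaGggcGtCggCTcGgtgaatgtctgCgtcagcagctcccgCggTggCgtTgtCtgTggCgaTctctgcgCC
The processed pseudogenes of KRT8 and KRT18 drew few fragments. The 50 named KRT8 pseudogenes summed to between 8.87 and 9.45 FPKM per library, mostly KRT8P12 (5.82 to 6.60), and the 67 of KRT18 to between 1.09 and 1.64, with KRT18P29 the highest (0.58 to 1.11).

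The type II genes lie together on chromosome 12, with KRT18 as the type I gene at one end beside KRT8. In GENCODE 29 order the stretch from KRT80 to KRT18 holds 49 genes of the tables, of which 8 passed the filter. In that order KRT80, KRT7, the antisense gene RP3-416H24.1, KRT86 and KRT81 were called lower, then KRT6A, which had to differ as said above, KRT8 was not called, and KRT18, the last, was called lower. RP3-416H24.1 (ENSG00000257671), which lies on the strand opposite to KRT7 and is named KRT7-AS in GENCODE 29, had 23.35 and 23.90 FPKM in the controls and 13.43 and 9.84 with GMI (log2 fold change -0.98, SE 0.13, adjusted p = 0.00539). It measured between 1.96% and 2.59% of KRT7, and since the strand setting of the counting is not given in the sources used here, reads of the overlap cannot be told from those of KRT7. Outside the cluster, the nearest tested coding gene before KRT80, C12orf44, was called higher (0.36, adjusted p = 0.0245), and EIF4B, the first after KRT18, was not called (-0.01).

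**Figure D2:**
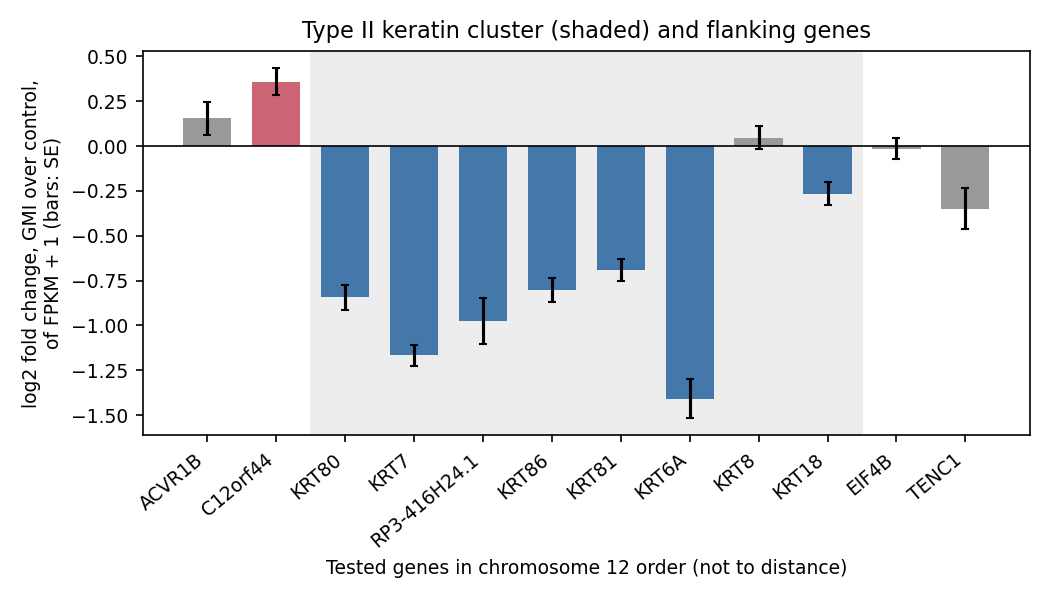
log2 fold change, GMI over control, of FPKM + 1 for the tested genes of the type II keratin cluster (shaded) and 2 tested coding genes on either side, in chromosome order and not to distance; error bars are the SE of the limma fit, blue and red bars have an adjusted p under 0.05 and grey bars do not. The bars from KRT80 to KRT81 lie between -0.69 and -1.17, that of KRT8 lies at 0.05 and that of KRT18 at -0.26; KRT6A, at -1.41, passed the filter through the controls alone.

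Summed over all keratins, FPKM was 6430 and 6232 in the controls and 4663 and 4729 with GMI, or 1.93% and 1.9% against 1.39% and 1.41% of all FPKM. The groups did not overlap. Such sums and ratios are given without a test; an exact permutation test of 2 against 2 libraries cannot go below p = 0.333. Summed type II over type I FPKM was 6.08 and 6.17 in the controls and 5.06 and 5.51 with GMI.

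That last contrast depends on gene length, and so does the size of the fall in summed keratin FPKM. Length was checked in genes of 300 to 1000 nt whose longest transcript is under 80% of the union of their exons. When the union was taken as the length, 91.2% to 92.1% of their low FPKM values were whole fragments. With the longest transcript the share was 7.5% to 13.3%, so the deposited FPKM of these genes are per union length. Every member has a longer union than these genes, and the annotation release used is not given, so the member lengths were not checked. The union is 6881 nt for KRT8 against 1755 nt for its principal transcript, and both are 1929 nt for KRT81, so FPKM understates KRT8 beside KRT81. Rescaled to principal transcript length, the type II to type I ratio of the 6 keratins was 6.32 and 6.36 in the controls and 6.05 and 6.56 with GMI, and the groups overlapped. The summed rescaled level of the 6 keratins was still lower in both GMI libraries than in both controls, but by a smaller share than the summed FPKM.

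The order of the members changes in the same way. By FPKM in the controls it was KRT81, KRT8, KRT7, KRT18, VIM, LMNA, KRT80, LMNB2, LMNB1 and KRT19, and no neighbours in that order overlapped. With GMI it began with KRT8 and KRT81, followed by VIM and KRT18, whose libraries overlapped, and then KRT7 and LMNA. On the rescaled levels KRT8 came first in both groups, with KRT7 second in the controls and VIM second with GMI. Of the summed rescaled level of the 6 keratins and VIM, KRT8 held 46.7% and 46.3% in the controls and 53.9% and 55.2% with GMI, and KRT7 went from 17.0% and 16.7% to 8.68% and 8.32%.

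**Figure D3:**
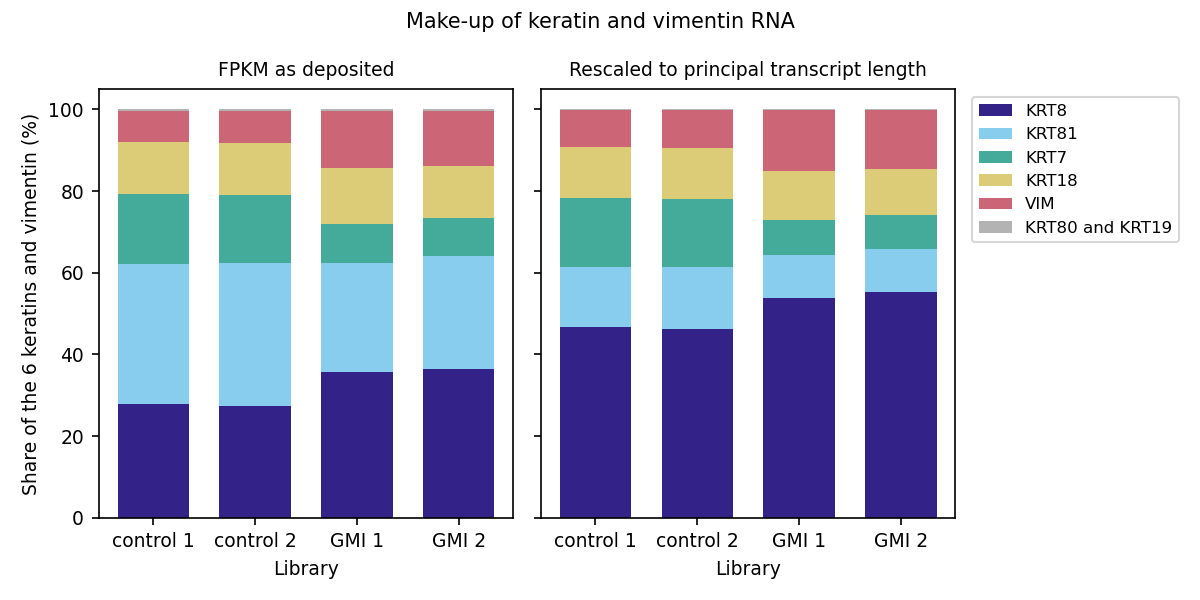
Share of each gene in the summed level of the 6 member keratins and VIM in each library, from FPKM as deposited (left) and after rescaling to principal transcript length (right). On both scales the shares of KRT7 and KRT81 are smaller and those of KRT8 and VIM larger in the GMI libraries; KRT8 is 27.4% to 36.5% on the left and 46.3% to 55.2% on the right.

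VIM (ENSG00000026025), the type III filament protein vimentin, measured 529.45 and 527.76 FPKM in the controls and 751.39 and 730.72 with GMI. Both GMI libraries lay above both controls, and the rise on the log2 scale was 0.49 (SE 0.056, adjusted p = 0.00341). Against all keratins, the VIM ratio went from 0.0824 and 0.0847 to 0.161 and 0.155, and the direction was the same on the rescaled levels (0.0994 and 0.103 to 0.175 and 0.168). The fibroblast markers, all below 1 FPKM, summed to the same range in both groups, as given above. The cause of the VIM rise was not tested. The antisense gene VIM-AS1, which in GENCODE 29 overlaps exons of VIM on the opposite strand, had 0.05 to 0.36 FPKM. Together with AL133415.1, also on that strand, it overlaps 24.43% of VIM exon bases.

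Of 13 other cytoplasmic filament genes 6 passed the filter, and IFFO2, a little-studied member of the family, was the only one called. It had 3.16 and 3.82 FPKM in the controls and 2.30 and 2.38 with GMI (log2 fold change -0.42, SE 0.10, adjusted p = 0.0370), a call that was lost in each fit without 1 of the libraries. The neuronal filament genes NEFL (12.03 and 11.73 against 10.87 and 11.76 FPKM) and INA (11.00 and 11.96 against 9.99 and 9.57) were expressed and were not called.

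**Figure D4:**
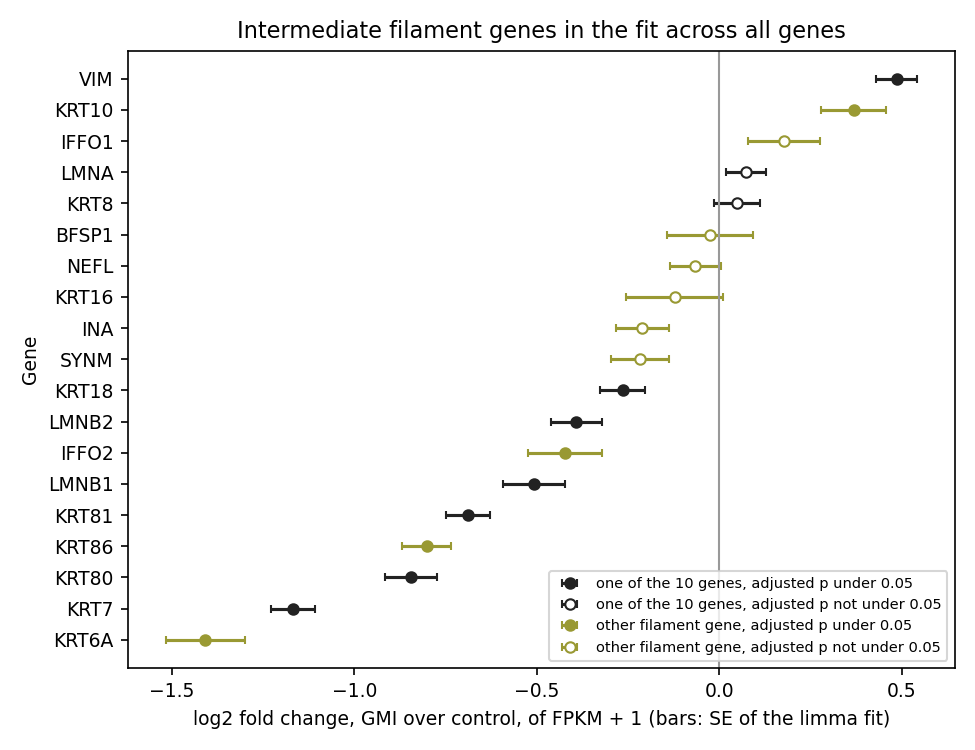
log2 fold change, GMI over control, of FPKM + 1 for the 9 tested members (black) and the 10 other tested intermediate filament genes (olive); bars are the SE of the limma fit and filled points have an adjusted p under 0.05. Points run from KRT6A at -1.41 to VIM at 0.49, and KRT8 and LMNA lie close to 0.

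LMNA (ENSG00000160789), whose lamins A and C stiffen the nucleus, measured 349.30 and 347.42 FPKM in the controls and 373.10 and 359.74 with GMI. The groups did not overlap, but the log2 fold change of 0.07 (SE 0.055, adjusted p = 0.417) did not pass the test. The gene-level values do not separate lamin A from lamin C. LMNB1 (ENSG00000113368), a B-type lamin that stays farnesylated and membrane-bound, was far less abundant, at 3.73 and 4.0 FPKM in the controls and 2.40 and 2.44 with GMI. These values stand for about 279, 350, 191 and 185 fragments. Its groups did not overlap, and it fell by 0.51 on the log2 scale (SE 0.085, adjusted p = 0.0114).

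LMNB2 (ENSG00000176619), the other B-type lamin, had 11.03 and 10.97 FPKM in the controls and 8.44 and 7.86 with GMI. Its groups did not overlap, and its log2 fold change was -0.39 (SE 0.071, adjusted p = 0.0148), with an adjusted p of 0.0533 without GMI replicate 2. The FPKM ratio of LMNA to the summed B-type lamins was 23.7 and 23.2 in the controls and 34.4 and 34.9 with GMI. On rescaled levels it was 43.7 and 42.8 against 63.8 and 64.6, so the 2 scales differed in size and not in direction.

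Promoter windows from RefSeq (GRCh38.p14, 250 bases before to 50 after an annotated start) were given for 5 of the 10 genes: KRT8, VIM, LMNA, LMNB1 and LMNB2. Those of the 2 B-type lamins, which fell together, are shown, for LMNB1 the one of 2 windows nearest the principal start, with matches to GGGCGG and CCAAT on either strand in capitals. For LMNB1 it is chr5:126776886-126777185 on the plus strand, and for LMNB2 chr19:2456910-2457209 on the minus strand.
LMNB1: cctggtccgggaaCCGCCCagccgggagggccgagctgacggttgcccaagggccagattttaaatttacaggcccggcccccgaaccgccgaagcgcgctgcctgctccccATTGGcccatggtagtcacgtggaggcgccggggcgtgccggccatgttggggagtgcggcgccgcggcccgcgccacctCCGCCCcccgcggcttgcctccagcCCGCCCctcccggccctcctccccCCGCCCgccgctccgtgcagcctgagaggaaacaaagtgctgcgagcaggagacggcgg
LMNB2: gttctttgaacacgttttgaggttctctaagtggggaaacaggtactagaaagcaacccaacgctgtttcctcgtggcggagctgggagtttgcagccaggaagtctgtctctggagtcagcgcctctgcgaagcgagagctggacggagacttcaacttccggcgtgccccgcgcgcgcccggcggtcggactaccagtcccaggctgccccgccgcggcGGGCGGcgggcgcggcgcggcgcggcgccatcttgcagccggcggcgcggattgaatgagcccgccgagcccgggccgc
GGGCGG matched at 4 places in the LMNB1 window shown and at 1 in that of LMNB2, and it occurs in 45.0% of all 35116 windows. It was not particular to the genes that fell: the window of VIM, which rose, held 1 match and each LMNA window at least 1, while that of KRT8 held 0. The other LMNB1 window, at chr5:126776373-126776672, held 0 matches to either. CCAAT matched once in the LMNB1 window shown and once in 1 LMNA window, and occurs in 34.6% of windows. None of these windows held TTTCGCGC, TTTGGCGC, TGANTCA or TGACGTCA on either strand, which occur in 0.5%, 0.7%, 7.7% and 1.8% of windows, and matches of different motifs did not overlap.

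Among partners of the lamina and the inner nuclear membrane, 15 of 20 genes passed the filter and 1 was called. This was SUN2, which ties the lamina to the cytoskeleton across the envelope, and it rose from 19.12 and 18.06 to 23.79 and 23.67 FPKM (log2 fold change 0.34, SE 0.063, adjusted p = 0.0170), a call that was lost without GMI replicate 2. The most abundant partners, BANF1, which bridges chromatin and the envelope (135.10 and 122.67 against 135.56 and 145.81 FPKM), and TMEM43 (72.28 and 77.34 against 80.53 and 79.66), were not called. Prelamin A and the B-type lamins carry a C-terminal CaaX box that is farnesylated and then trimmed. Of 8 genes of CaaX prenyl processing, not all of them for farnesylation, 2 rose. They were RCE1, the protease that clips the box (11.50 and 11.29 against 15.98 and 16.42 FPKM, log2 fold change 0.47, adjusted p = 0.00580), and FDPS, which makes farnesyl diphosphate (15.09 and 16.12 against 20.34 and 20.93, 0.38, adjusted p = 0.0129); 1 of these 2 calls was left without GMI replicate 2. ZMPSTE24, the prelamin A protease (20.37 and 22.27 against 19.13 and 23.84 FPKM), and ICMT, the methyltransferase of the same route (20.28 and 21.88 against 21.59 and 23.34), were not called, and their groups overlapped.

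Keratins are anchored at desmosomes and cross-linked by plakins. Of 22 such genes 14 passed the filter and 2 were called, both higher. JUP, plakoglobin, which links desmosomal cadherins to the keratin-binding plakins, had 46.99 and 45.72 FPKM in the controls and 67.46 and 65.94 with GMI (log2 fold change 0.52, SE 0.056, adjusted p = 0.00288), and the cadherin DSG2 had 35.64 and 41.28 against 51.62 and 54.04 (0.45, SE 0.081, adjusted p = 0.0147). PLEC, plectin, the main cross-linker of keratin and vimentin filaments, was the most abundant gene of the list, with 140.84 and 150.21 FPKM in the controls and 125.99 and 102.34 with GMI. Its groups did not overlap, but it missed the threshold (-0.35, adjusted p = 0.0593).

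Of 14 transcription regulators of the epithelial to mesenchymal transition, which repress or maintain epithelial genes, 4 passed the filter. SNAI2, a repressor of epithelial genes, fell from 10.06 and 11.28 to 6.19 and 6.04 FPKM (-0.71, SE 0.080, adjusted p = 0.00316). TWIST2 (4.14 and 3.21 against 4.98 and 2.61 FPKM) was not called. Of the 7 genes of the 14-3-3 proteins, which bind phosphorylated keratins, SFN (253.83 and 264.12 against 303.11 and 336.96 FPKM, 0.30, adjusted p = 0.0316) and YWHAH (0.28, adjusted p = 0.0225) rose and YWHAE fell (-0.21, adjusted p = 0.0469). Both rises were lost without the mean-variance trend and without GMI replicate 2, and the fall was lost without that trend, with median centring, and without either GMI replicate. The most abundant, YWHAQ, had 367.97 and 371.63 FPKM in the controls and 313.26 and 333.02 with GMI and was not called (adjusted p = 0.0705).

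The calls lean on the pairs of libraries. Without control replicate 1 or control replicate 2, KRT7 was the only member called (adjusted p = 0.0389 and 0.0376), in fits that called 43 genes higher and 31 lower, and 28 higher and 17 lower. There VIM had adjusted p = 0.0701 and 0.0769, KRT81 0.0515 and 0.0547, KRT80 0.0530 and 0.0574, LMNB1 0.105 and 0.141 and LMNB2 0.151 and 0.158, while KRT18 had 0.215 and 0.165. Of the other lists, 1 other keratin was called without control replicate 1 and 0 genes without control replicate 2. Without the filter on low values, limma tested 26758 genes and called 1, and 0 members were called. An unadjusted p under 0.05 was found for 4500 of all 26758 genes and for 8 of the 10 members. Nothing is read from that share, as the members were chosen with earlier results known.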

How the data were processed

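The members and the gene lists were chosen with earlier results of these data known, and the neighbouring genes of the keratin cluster and the rescaling by transcript length were chosen after the values were seen. The deposited files give FPKM to 2 decimals for 57905 Ensembl genes in each of 4 libraries. The build was GRCh37 and the tools were HISAT2 2.0.1, HTSeq 0.6.1, cutadapt 1.9.1 and bcl2fastq 2.17.1.14, per the submitters' processing notes. The sources used here give neither the annotation release nor the strand setting. The labels' protocols give Trizol extraction, RNA integrity numbers above 7 and the NEBNext Ultra RNA kit.

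Library denominators were those that made most FPKM values of genes up to 200 nt and below 20 FPKM whole multiples of 1 fragment, within 0.006 FPKM. They were 20560000 and 24090000 for the controls and 21860000 and 20880000 for GMI, and 95.8% to 96.8% of values were then whole, against 2.8% to 3.2% by chance. Fragment numbers given for a gene are approximate and cover counting error only.

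Genes with at least 1 FPKM in at least 2 libraries were tested with limma 3.58.1 in R 4.3.3 on log2(FPKM + 1), with a mean-variance trend, no covariates and Benjamini-Hochberg adjustment over 11598 genes at 0.05. There were 2 residual and 4.69 prior degrees of freedom. The procedure was also run on simulated data, but with fewer changed genes than were called here, so that run does not vouch for the calls. Fold changes are on this log2 scale with GMI as the numerator, which understates the change of low genes. From each list the text names up to 4 called genes whose groups do not overlap, those with the smallest adjusted p, and the 2 with the highest mean FPKM. Gene length, order and coding sequence came from GENCODE 29, on GRCh38, and no coordinates were carried between builds. NEMP1, 1 lamina partner, had no match by symbol. Python 3.11.15, pandas 2.3.3 and numpy 2.4.6 prepared the tables.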

Additional observations from a re-analysis of the deposited data

How the results depend on the processing

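All 9 tested members kept their direction under the 12 alternatives (LMNB1, below a mean of 5 FPKM, had 11). Most alternatives could not have reversed a direction. The filters, the trend and the replicate block leave a fold change unchanged. For the 8 tested members whose groups did not overlap, leaving out 1 library or another pseudocount cannot change the sign. The log2 fold change ran from -1.24 to -1.13 for KRT7, from -0.72 to -0.66 for KRT81 and from 0.47 to 0.51 for VIM. Without a filter on low values limma called 1 of 26758 genes (0 higher, 1 lower; 4500 at an unadjusted p under 0.05), and 0 of the members or of any list, while 8 of 10 members had an unadjusted p under 0.05. Leaving out 1 library left 28 to 856 genes called higher and 17 to 513 lower, of the members 0 to 1 higher and 1 to 5 lower, of other keratins 0 to 1 and 0 to 2, of plakins and desmosome linkers 0 to 2 and 0 to 1, of lamina partners 0 to 1 higher, of CaaX processing 0 to 2 higher, of transition regulators 0 to 1 lower, of other filaments 0 lower, and of 14-3-3 genes 0 to 2 higher and 0 lower; a lone library was assumed to vary like the other group. At a mean FPKM of at least 5, 1 other keratin, 1 plakin gene, 1 lamina partner and 3 14-3-3 genes were lower and 0 other filaments. With quantile normalization 0 other keratins and 1 14-3-3 gene were higher, and 1 lamina partner and 3 14-3-3 genes lower. Without the trend 0 other keratins were higher, and 0 14-3-3 genes were higher or lower, and with median centring 0 14-3-3 genes were lower. The causes were not tested. The labels do not say whether the shared replicate numbers pair the libraries. Differences between replicates correlated at -0.044 between the groups over genes, but with 1 difference per group this cannot settle it. With a replicate block 1191 genes were higher and 809 lower, 7 members were called as without it, 1 plakin gene was lower and 0 14-3-3 genes. The mean type II to type I ratio was 6.13 in controls and 5.29 with GMI, 6.27 in controls with the 6 keratins alone, and 6.34 and 6.31 when rescaled by length; rescaling also took the VIM ratio to 0.101 and 0.171 and the lamin ratio to 43.3 and 64.2. KRT19, at about 20 to 49 fragments, and LMNB1 are limited by depth.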
